A study of Danio rerio with 16 samples.

Results

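Messenger RNA was measured in the livers of zebrafish larvae for 41 genes of glucose metabolism, which cover glucose entry, glycolysis, gluconeogenesis and the making and breaking of glycogen. The genes were taken from a fixed list of symbols and matched by name to the deposited table, where all 41 were found among 32058 features. The study collected livers at 4, 5, 6 and 7 days post fertilization (dpf) in 8 groups of 2 libraries, and each library pooled the livers of 30 larvae. Wild-type larvae with the treatment given as Normal were sampled at 4 dpf and at 5 dpf. At 6 dpf there were fasted wild type, fasted Tg(fabp10a:GCaMP6s) and fasted wild type with ethanol, and at 7 dpf fasted wild type, fed wild type and a second fed wild-type group that is called ventral in its titles. The transgene carries the fabp10a promoter, which is active in hepatocytes, and encodes a fluorescent calcium indicator. The sources used here give neither the ethanol dose and duration, nor whether food was offered at 4 and 5 dpf, nor what ventral means. They also do not say whether the 2 libraries of a group came from separate clutches, so p-values measure only the spread between these libraries, which may be technical.

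The liver takes up glucose through the transporter Slc2a2 and traps it with glucokinase, an enzyme that the regulatory protein Gckr holds in the nucleus when glucose is low. Glycolysis then splits the sugar to pyruvate, and gluconeogenesis runs the same path backwards with enzymes of its own at the irreversible steps: phosphoenolpyruvate carboxykinase, fructose-1,6-bisphosphatase and glucose-6-phosphatase. Glycogen synthase stores glucose as glycogen and glycogen phosphorylase releases it again. In mammals the liver favours storage and glycolysis after a meal, and glycogen breakdown followed by gluconeogenesis in fasting. Many of these steps are encoded by several isozymes, one typical of liver and others typical of muscle, brain or proliferating cells. Zebrafish often carry duplicates of each.

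Levels are given as CPM, the counts of a gene scaled to a common library size by TMM, replicate 1 first and replicate 2 second. CPM is not corrected for transcript length, so levels are compared between groups and not between genes. Differences are log2 fold changes ± standard error from edgeR's quasi-likelihood test in a model of all 16 libraries, with p-values adjusted by Benjamini-Hochberg over the 17799 genes tested. A gene rose or fell where the adjusted p was under 0.1 and the change at least 2-fold, the limits of the series' design text. Exact permutation of 2 libraries against 2 cannot give a two-sided p below 0.333, so single genes rest on the model. The members passed the filter on low counts except pkmb, a muscle-type pyruvate kinase with at most 12 counts in a library, which leaves 40 tested. Libraries held 18995692 to 28033476 counts, and the 41 genes took 2.07% to 4.10% of them. Hepatocyte markers made up 7.18% to 18.1% of counts. Counts of the EGFP feature were 136106 and 43968 in the GCaMP6s libraries, 38 in each 6 dpf fasted library and 0 in all others. In bulk tissue, fewer cells of a type and less RNA per cell cannot be told apart.

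Of the 40 members tested, 38 differed somewhere among the 8 groups at an adjusted p under 0.1 in edgeR, against 78.2% of all genes. The other two were aldoab, a muscle-type aldolase, and tpi1a, a triosephosphate isomerase with at most 20 counts in a library. In 9 pairwise comparisons, 30 members rose or fell at least once and 10 did not. The 10 were hk1, tpi1b, gapdhs, pgk1, pgam1a, eno3, g6pca.1, gys1, ugp2b and aldoab. gckr, pfklb and pgm1 were each called in 6 comparisons, more than any other member.

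**Figure D1:**
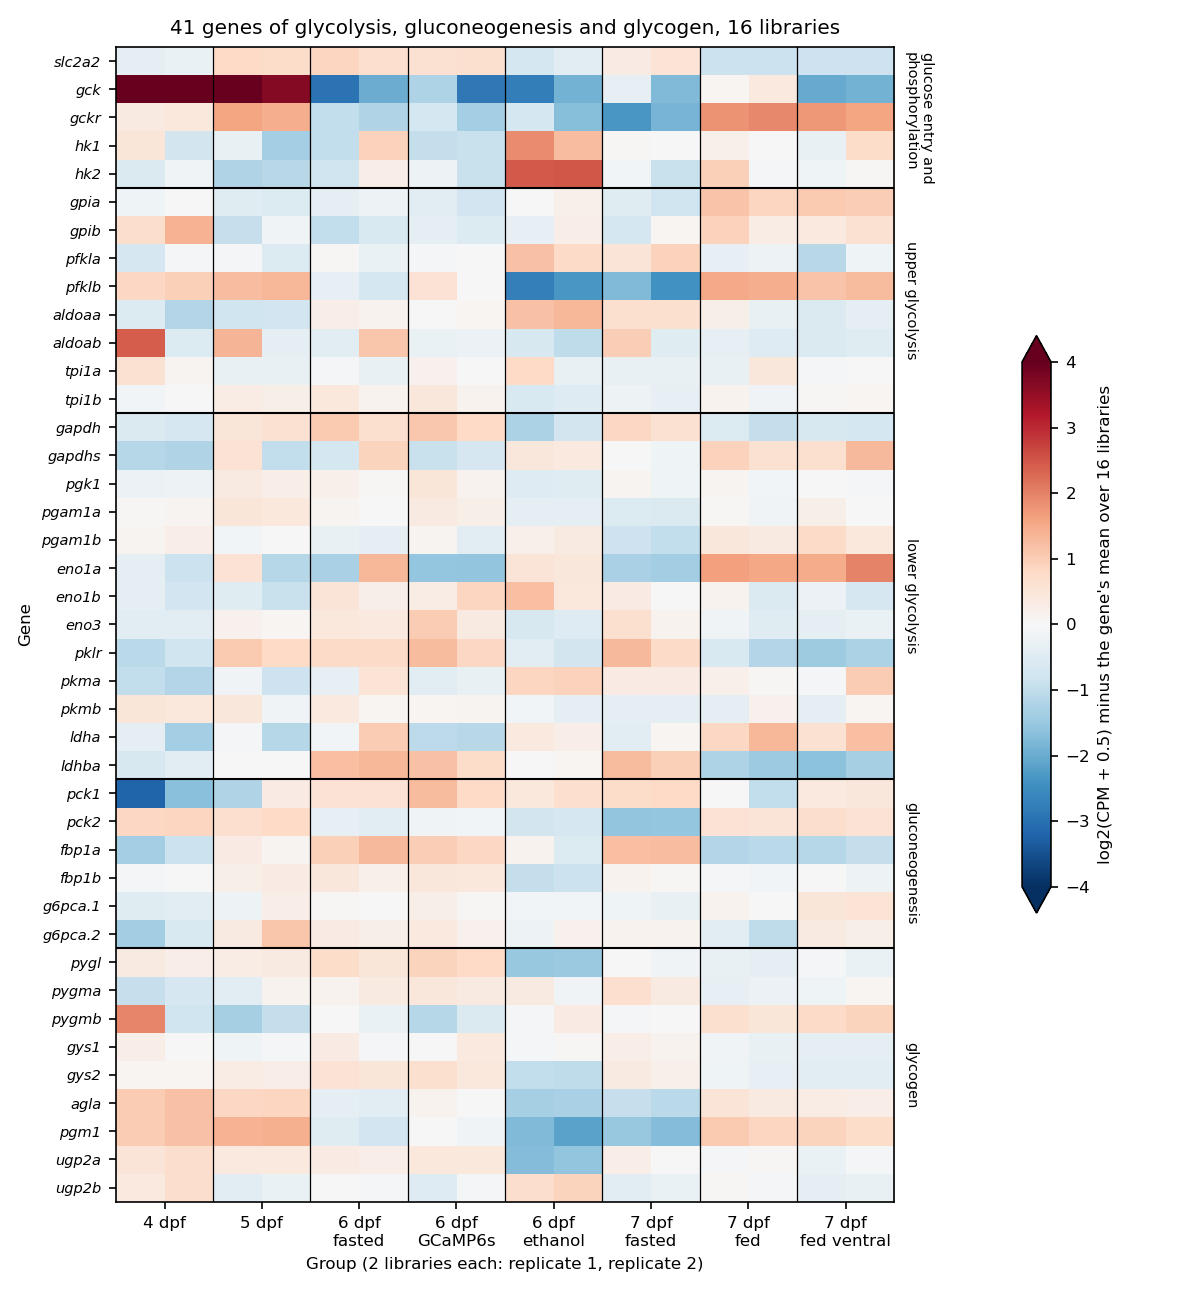
Heat map of the 41 genes (vertical axis, grouped by role) in the 16 libraries (horizontal axis, 2 per group). Colour gives the log2 level relative to the gene's mean over all libraries, clipped at 4 on either side. Within the fed and ventral groups gckr, pfklb and pgm1 were above their levels in the 7 dpf fasted group, and pklr, gapdh and ldhba were below them.

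For glucose entry and trapping, gck, which encodes glucokinase, stood at 205 and 364 CPM at 4 dpf and at 91.1 and 66.6 CPM at 5 dpf. It stood at 0.184 and 0.818 CPM in 6 dpf fasted livers, 1.72 and 0.219 CPM with GCaMP6s and 0.275 and 0.914 CPM with ethanol. At 7 dpf it was at 3.63 and 1.03 CPM fasted, 4.99 and 6.39 CPM fed and 0.806 and 0.921 CPM in the ventral group. The 4 libraries of 4 and 5 dpf were all above the other 12, with the fed group at 7 dpf far below 4 dpf.

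gckr, the regulator of glucokinase, followed another order across the groups. It stood at 2.76 and 2.93 CPM at 4 dpf and 7.06 and 6.38 CPM at 5 dpf, then at 0.781 and 0.614 CPM in 6 dpf fasted livers. It was at 1.05 and 0.494 CPM with GCaMP6s and 1.05 and 0.281 CPM with ethanol. At 7 dpf it was at 0 and 0.205 CPM fasted (0 and 4 counts), 8.36 and 9.15 CPM fed and 7.88 and 7.11 CPM in the ventral group. The 4 libraries of the fed and ventral groups were the highest of all 16, and both 7 dpf fasted libraries were the lowest.

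hk2, a low-Km hexokinase typical of muscle and proliferating cells, stood at 1.201 and 1.83 CPM at 4 dpf, 0.605 and 0.682 CPM at 5 dpf, 0.965 and 2.56 CPM in 6 dpf fasted and 1.72 and 0.878 CPM in GCaMP6s livers. It was at 13.6 and 13.8 CPM with ethanol, and at 1.86 and 0.872 CPM fasted, 4.42 and 1.95 CPM fed and 1.79 and 2.15 CPM ventral at 7 dpf. The ethanol libraries were above all 14 others. The transporter slc2a2 was at 910.4 and 790.1 CPM in 6 dpf fasted livers, 303 and 369 CPM with ethanol and 629 and 726 CPM fasted and 272 and 272 CPM fed at 7 dpf.

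In upper glycolysis, phosphofructokinase commits sugar to breakdown, and its liver-type paralogues behaved differently. pfklb stood at 75.1 and 82.1 CPM at 4 dpf, 99.2 and 107 CPM at 5 dpf, 33.3 and 25.5 CPM in 6 dpf fasted and 62.7 and 41.5 CPM in GCaMP6s livers. It was at 5.81 and 7.98 CPM with ethanol, and at 12.001 and 7.33 CPM fasted, 121 and 115 CPM fed and 92.6 and 102 CPM ventral at 7 dpf. The fed libraries were the highest, and the ethanol and 7 dpf fasted libraries the lowest.

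pfkla stood at 2.19 and 3.65 CPM at 4 dpf, 3.63 and 2.39 CPM at 5 dpf, 3.90 and 3.02 CPM in 6 dpf fasted and 3.63 and 3.73 CPM in GCaMP6s livers. It was at 9.09 and 6.72 CPM with ethanol, and at 5.54 and 7.54 CPM fasted, 2.89 and 3.21 CPM fed and 1.48 and 3.27 CPM ventral at 7 dpf. The 4 libraries of the ethanol and 7 dpf fasted groups, where pfklb was lowest, were the highest for pfkla. gpia, glucose-6-phosphate isomerase, was at 206 and 167 CPM in 7 dpf fasted livers and 628 and 524 CPM in fed livers.

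In lower glycolysis, pklr encodes the liver pyruvate kinase, which makes pyruvate in the last step. It stood at 2467 and 3014 CPM at 4 dpf, 10784 and 9083 CPM at 5 dpf, 8867 and 8975 CPM in 6 dpf fasted and 12623 and 9354 CPM in GCaMP6s livers. It was at 3831 and 3192 CPM with ethanol, and at 12932 and 9027 CPM fasted, 3426 and 2327 CPM fed and 1981 and 2183 CPM ventral at 7 dpf. The 8 libraries of 5 dpf, 6 dpf fasted, GCaMP6s and 7 dpf fasted were all above the 8 libraries of the other groups.

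Lactate dehydrogenase interconverts pyruvate and lactate, and its paralogues moved apart. ldhba, the heart-type form, was at 256 and 289 CPM at 4 dpf, 403 and 394 CPM at 5 dpf, 925 and 988 CPM in 6 dpf fasted and 890.1 and 657 CPM in GCaMP6s livers. It was at 391 and 419.9 CPM with ethanol, and at 964 and 775 CPM fasted, 169.9 and 146 CPM fed and 127 and 159.6 CPM ventral at 7 dpf. ldha, the muscle-type form, was at 13.1 and 18.9 CPM in 7 dpf fasted, 32.2 and 45.7 CPM in fed and 27.5 and 42.2 CPM in ventral livers. Fasted libraries at 7 dpf were above fed ones for ldhba and below them for ldha.

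eno1a, an enolase of the widely expressed type, stood at 13.1 and 9.52 CPM at 4 dpf, 26.6 and 7.70 CPM at 5 dpf and 5.63 and 5.60 CPM in GCaMP6s livers. In 6 dpf fasted livers it stood at 6.89 and 44.6 CPM and with ethanol at 25.4 and 24.1 CPM. At 7 dpf it was at 6.82 and 6.36 CPM fasted, 55.3 and 52.8 CPM fed and 49.7 and 71.1 CPM ventral. The 6 dpf fasted libraries were 6.47-fold apart, while the fed and ventral libraries were all above every other library.

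Of the remaining lower glycolysis members, gapdh was at 3516 and 3289.9 CPM at 4 dpf, 7421 and 8049 CPM at 5 dpf, 10837 and 8312 CPM in 6 dpf fasted, 2177 and 3144 CPM in ethanol, 9449 and 8109.8 CPM in 7 dpf fasted and 3587 and 2733 CPM in fed livers. The 4 dpf, ethanol and fed libraries were all below those of the fasted groups and of 5 dpf. Over all 16 libraries gapdhs, a paralogue, ran from 16.7 to 96.4 CPM (median 45.1), pkma from 19.0 to 89.6 CPM (median 43.6), pgam1b from 12.2 to 42.4 CPM (median 26.9) and eno1b from 0.0974 to 2.09 CPM (median 0.676).

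In gluconeogenesis the carboxykinase paralogues followed different courses. They were called in opposite directions only from 4 dpf to 7 dpf fasted. pck1, the cytosolic enzyme that draws oxaloacetate toward glucose, was at 253 and 725 CPM at 4 dpf, 1015 and 2941 CPM at 5 dpf, 3522 and 3518 CPM in 6 dpf fasted and 5632 and 4078 CPM in GCaMP6s livers. It was at 3144 and 3736 CPM with ethanol, and at 3908 and 4089 CPM fasted, 2310.3 and 1187 CPM fed and 3042 and 3194 CPM ventral at 7 dpf. Its replicates were 2.87-fold apart at 4 dpf and 2.90-fold apart at 5 dpf, and both 7 dpf fasted libraries lay above the fed and ventral ones.

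pck2, which encodes the mitochondrial enzyme, was at 1589 and 1620.2 CPM at 4 dpf, 1439 and 1569 CPM at 5 dpf, 706 and 654 CPM in 6 dpf fasted and 813 and 835 CPM in GCaMP6s livers. It was at 541 and 565 CPM with ethanol, and at 299.5 and 308 CPM fasted, 1329 and 1279 CPM fed and 1473 and 1335 CPM ventral at 7 dpf. The 7 dpf fasted libraries were the lowest of the 16.

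The glucose-6-phosphatases release free glucose. g6pca.1 ranged from 210.4 CPM at 4 dpf to 428 CPM in a ventral library. g6pca.2 stood at 481 and 835 CPM at 4 dpf, 1627 and 2709 CPM at 5 dpf, 1604 and 1488 CPM in 6 dpf fasted, 1660.4 and 1411 CPM in GCaMP6s and 1109 and 1418 CPM in ethanol livers. At 7 dpf it was at 1396 and 1395 CPM fasted, 932 and 626 CPM fed and 1633 and 1483 CPM ventral. By their names these are tandem copies, and reads may have been split unevenly between them. fbp1a, a fructose-1,6-bisphosphatase, was at 23.7 and 24.2 CPM in 7 dpf fasted livers and 4.26 and 4.56 CPM in fed livers, while its paralogue fbp1b was at 1068 and 983 and 918 and 888 CPM.

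Among the glycogen genes, gys2, the liver glycogen synthase, was at 753 and 751 CPM at 4 dpf, 879 and 863 CPM at 5 dpf, 1077 and 995 CPM in 6 dpf fasted and 1109 and 958 CPM in GCaMP6s livers. It was at 364 and 352 CPM with ethanol, and at 914 and 824 CPM fasted, 633 and 569 CPM fed and 529 and 519 CPM ventral at 7 dpf. The ethanol libraries were the lowest of the 16. pygl, the liver phosphorylase that breaks glycogen down, likewise had its 2 lowest libraries with ethanol, at 514 and 525 CPM, against 2446 and 2051 CPM in 6 dpf fasted livers.

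pgm1, phosphoglucomutase, which links glycogen to glycolysis, was at 1877 and 2097 CPM at 4 dpf, 2424 and 2458 CPM at 5 dpf, 659 and 549 CPM in 6 dpf fasted and 917 and 838 CPM in GCaMP6s livers. It was at 269 and 211 CPM with ethanol, and at 324 and 279 CPM fasted, 1915 and 1693 CPM fed and 1701 and 1531 CPM ventral at 7 dpf. Only the ethanol libraries were below the 7 dpf fasted ones. agla was at 574 and 636 CPM at 4 dpf, 218 and 209.8 CPM in 6 dpf fasted, 114 and 115 CPM in ethanol, 151 and 135 CPM in 7 dpf fasted and 405 and 369 CPM in fed livers, and ugp2a was at 817 and 785 CPM without and 196 and 215 CPM with ethanol. The ethanol libraries were again the lowest of all for agla and for ugp2a.

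The other members are given by their range over the 16 libraries. hk1, the hexokinase typical of brain, ran from 1.56 to 19.0 CPM (median 4.72), gpib from 0.276 to 3.502 CPM (median 1.002), aldoaa from 31.5 to 178 CPM (median 73.5) and tpi1b from 545 to 1141 CPM (median 872). pgk1 ran from 845 to 1696 CPM (median 1222), pgam1a, a phosphoglycerate mutase, from 296 to 624 CPM (median 459) and eno3, an enolase known from mammalian muscle, from 1216 to 3798 CPM (median 1866). In glycogen metabolism gys1 ran from 8.85 to 15.1 CPM (median 11.2), ugp2b from 10.6 to 29.4 CPM (median 14.8) and pygmb from 1.11 to 15.1 CPM (median 3.45). For pygma the range was 0.106 to 1.33 CPM (median 0.748), for aldoab 0.141 to 6.36 CPM (median 0.473) and for tpi1a 0 to 0.551 CPM (median 0.0907).

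**Figure D2:**
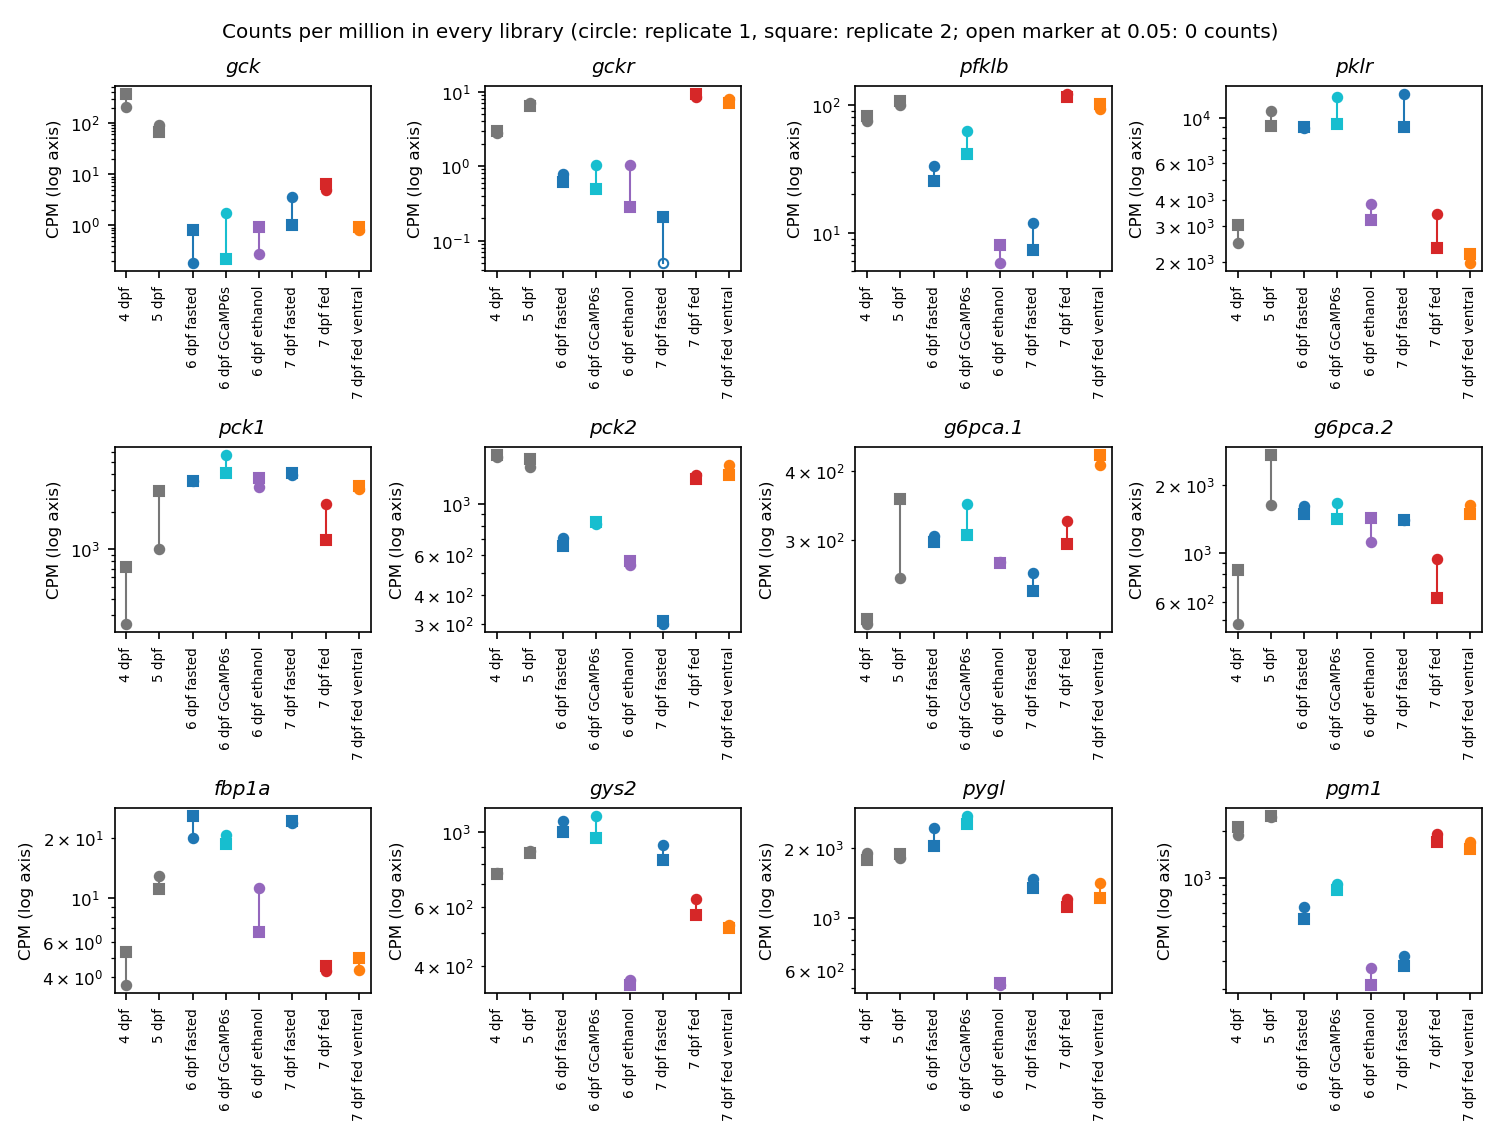
Level in CPM (log axis) of 12 genes in the 8 groups (horizontal axis). Circles are replicate 1, squares replicate 2, and an open marker stands for 0 counts. gck was at 66.6 CPM or more at 4 and 5 dpf and at 6.39 CPM or less in every later group, and gckr, pfklb, pck2 and pgm1 were high again in fed and ventral livers.

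The first comparison asked what food did at 7 dpf. In fed livers gckr, pfklb, eno1a, pgm1 and pck2 rose, together with hk2, gpia, gpib, pgam1b, ldha and agla. The genes slc2a2, pfkla, gapdh, pklr, ldhba and fbp1a fell. That is 11 of 40 members that rose and 6 that fell, against 20.7% and 16.8% of all genes, so the members' share of calls (42.5%) was near the background of 37.5%. The groups did not overlap for 34 of 40 members (85%), against 74.8% of all genes.

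gckr rose most, with a log2 fold change of 6.43 ± 0.67 (edgeR, adjusted p = 3.22e-07), but the fasted group held 4 counts in all. Without fasted replicate 1 the log2 fold change was 5.38, and without fasted replicate 2 it was 10.67. pfklb rose 12.1-fold (log2 3.60 ± 0.25, edgeR adjusted p = 5.36e-08) and eno1a 8.19-fold (log2 3.03 ± 0.83, adjusted p = 0.0149). gck, at a log2 difference of 1.26 ± 0.72, did not pass (adjusted p = 0.181, edgeR), but was called higher, at 2.48, without fasted replicate 1. It was also called higher, at 1.27 in both, with no filter on low counts and with only these 2 groups fitted. The adjusted p was 1.77e-09 with no filter and 0.0611 with only these 2 groups (edgeR). The fit with no filter is not taken as support, since the fasted replicates were at 3.63 and 1.03 CPM.

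In lower glycolysis ldhba fell 5.51-fold (log2 -2.46 ± 0.16), pklr 3.82-fold (log2 -1.93 ± 0.22) and gapdh, the glyceraldehyde phosphate dehydrogenase, 2.78-fold (log2 -1.47 ± 0.18). In the same group ldha, eno1a and pgam1b rose, so 3 of 12 lower glycolysis members rose and 3 fell. In gluconeogenesis fbp1a fell 5.42-fold (log2 -2.44 ± 0.24) and pck2 rose 4.30-fold (log2 2.10 ± 0.11). pck1 did not pass at a log2 difference of -1.19 ± 0.59 (edgeR, adjusted p = 0.13), with fed replicates of 2310.3 and 1187 CPM; DESeq2 called it lower, at -1.21.

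In glycogen metabolism 2 of 9 members rose and none fell. pgm1 rose 5.99-fold (log2 2.58 ± 0.14) and agla, the debranching enzyme, 2.71-fold (log2 1.44 ± 0.11). gys2 and pygl, the synthase and the phosphorylase, had log2 differences of -0.53 ± 0.11 and -0.27 ± 0.12, neither past the limits. Calls of 13 members held without each of the 4 libraries in turn. gpib, hk2, ldha and pfkla lost theirs without at least one library, with log2 values of 0.54 for hk2 without fed replicate 1, 0.75 for gpib without fasted replicate 1, 1.02 for ldha without fed replicate 2 and -0.85 for pfkla without fasted replicate 2. Without fed replicate 1, g6pca.2 was called lower and tpi1a, at 0 counts in the fasted group, higher.

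Related genes outside the 41 were counted from 5 lists of 162 symbols. Of other isozymes and enzymes of sugar entry, 10 of 24 rose with food and 2 fell. galk1, galactokinase, rose from 1.04 ± 0.0264 CPM fasted to 38.0 ± 7.48 CPM fed (mean ± SD, n = 2). Of switches of glycolytic flux, 10 of 26 rose and 4 fell. pfkfb4b, which sets the allosteric activator of phosphofructokinase, fell by a log2 of 4.24 ± 0.64.

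Of the genes that supply gluconeogenesis, 9 of 21 rose and 3 fell. tat, which breaks down tyrosine, fell from 7734 ± 172 to 626 ± 179 CPM. Of other glycogen genes, 6 of 22 rose and 5 fell. ppp1r3b, a subunit that directs protein phosphatase to liver glycogen, rose from 3.07 ± 0.287 to 89.6 ± 7.80 CPM. Of hormone and transcription control genes, 3 of 48 rose and 21 fell, and the median log2 difference of that list was -0.80 against -0.004 for all genes. klf9, a glucocorticoid-induced factor, fell from 223 ± 16.03 to 16.96 ± 2.70 CPM.

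Fed livers differed in other cell types too. All 14 red blood cell markers tested rose, and their summed level went from 0.000987% to 0.00220% of counts fasted to 0.0578% to 0.0721% fed. Hepatocyte markers took 7.18% to 7.93% of counts fasted and 16.6% to 18.1% fed, yet only 3 of 13 rose and 1 fell, with a median log2 difference of 0.057. Endothelium markers fell in 10 of 12 (median -1.83), from 0.0740% to 0.0969% of counts fasted to 0.0232% to 0.0233% fed. Skin markers fell in 8 of 18 with 1 rising, exocrine pancreas markers fell in 6 of 16, and of 12 intestine markers 4 rose and 1 fell. Of 30 skeletal muscle markers tested, 0 rose and 3 fell with food. The muscle list took 0.00861% and 0.001765% of counts fasted and 0.001316% and 0.003216% fed. The part of these markers in the members' changes was not tested.

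The ventral group was also fed, and its question against the 7 dpf fasted group is the same. 9 of 40 members rose and 7 fell, a called share of 40% against 37.1% of all genes, 20.1% rising and 16.9% falling. gckr at a log2 of 6.21 ± 0.67, pfklb at 3.33 ± 0.25 and eno1a at 3.19 ± 0.84 led, with ldhba at -2.60 ± 0.16 and pklr at -2.40 ± 0.22 the lowest. Both comparisons share the fasted libraries. aldoaa, a widely expressed aldolase, fell here at -1.14 ± 0.18 and stood at -0.67 ± 0.18 with the other fed group, while hk2 and gpib did not pass. gckr stood at 5.16 without fasted replicate 1 and at 10.44 without fasted replicate 2. ldha lost its call without any 1 of the 4 libraries, and pfkla, at -1.47 ± 0.36, lost it without ventral replicate 1, at -0.99, and stood at -2.13 without ventral replicate 2. gpib was called higher without fasted replicate 2. gck, not called in the main model, was called lower with no filter on low counts (-1.454, edgeR adjusted p = 1.6e-07). With only these 2 groups fitted gck was also called lower (-1.445, edgeR adjusted p = 0.0698). In those settings it was called higher in the other fed group against the same fasted libraries.

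Markers of other cell types also differed here. Exocrine pancreas markers fell in 16 of 16 (median log2 difference -4.57), endothelium markers in 12 of 12 (median -1.99), endocrine pancreas markers in 5 of 8 and intestine markers in 6 of 12 with 3 rising. Red blood cell markers rose in 14 of 14 (median 5.81). Of 13 hepatocyte markers 5 rose and 1 fell. Their part in the members' changes was not tested.

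Against the other fed group directly, the ventral group had no member past both limits in edgeR, where 1.16% of all genes were called, 0.5% higher and 0.663% lower. 5 of 40 members had an unadjusted p under 0.05, and the share of all genes under that limit was not computed. DESeq2 called 1 member, g6pca.2, higher at 1.03, among 382 genes it called in all. The 5 were gck, aldoaa, pklr, g6pca.1 and g6pca.2. gck was at 4.99 and 6.39 CPM fed and 0.806 and 0.921 CPM ventral, a log2 difference of -2.73 ± 0.85 (edgeR, adjusted p = 0.216). edgeR did call gck lower, at -2.72, when only these 2 groups were fitted and, at -2.73, with no filter on low counts. The adjusted p was 0.000511 with only these 2 groups and 2.45e-28 with no filter (edgeR). The fit with no filter is not taken as support, on 18 counts in each ventral library. The muscle markers made up 0.000840% and 0.0298% of counts in the ventral libraries and the skin markers 0.0112% and 0.101%, so its replicates stand apart in these.

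The steps from 4 dpf to 7 dpf fasted asked how the genes moved with age and then with the fast. These comparisons share libraries with their neighbours, and from 5 dpf to 6 dpf age and the labelled treatment change together and cannot be told apart. The same holds for age and treatment from 4 dpf to 7 dpf fasted. From 6 to 7 dpf fasted, age and any longer fast cannot be told apart. From 4 to 5 dpf 8 of 40 members rose and 3 fell (27.5%), against 14.9% of all genes, 7.44% rising and 7.42% falling. slc2a2, gapdh, pklr, fbp1a and g6pca.2 rose with calls that held without each library, pklr by a log2 of 1.86 ± 0.22 and fbp1a by 1.42 ± 0.23. g6pca.2 lost its call, at 1.70, with only the 2 groups fitted.

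The other 6 calls did not hold without each library. gck fell at -1.85 ± 0.56, gpib at -2.20 ± 0.62 and pygmb, a muscle-type phosphorylase, at -2.66 ± 0.77. gckr rose at 1.24 ± 0.44, pck1 at 2.02 ± 0.61 and pygma, the paralogue of pygmb, at 1.74 ± 0.74. pygmb was at 15.1 and 1.83 CPM at 4 dpf and 1.11 and 1.56 CPM at 5 dpf, and without 4 dpf replicate 1 its log2 change was -0.47. pygma was at 0.106 and 0.228 and 0.353 and 0.779 CPM, with 3 and 6 counts at 4 dpf. pck1 stood at 1.05 without 5 dpf replicate 2. gpib was at 1.98 and 3.502 CPM at 4 dpf and 0.302 and 0.877 CPM at 5 dpf, and at -1.64 without 5 dpf replicate 1. Not called with all libraries, gapdhs was called higher without 5 dpf replicate 2, and ugp2b lower without 4 dpf replicate 1 or 5 dpf replicate 2. hk2, not called in the main model, was called lower with DESeq2 (-1.25) and library size scaling (-1.63). It was also called lower with no filter on low counts (-1.24) and only the 2 groups fitted (-1.25). Between these ages 8 of 14 red blood cell, 8 of 16 exocrine pancreas and 5 of 18 skin markers rose and none of them fell, and their part in the members' changes was not tested.

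With scaling by library size alone the median log2 difference of all genes at this step was -0.34 and 4 members rose and 6 fell. slc2a2, gapdh, gckr and pygma then missed the limits. Over all genes 2645 were called under TMM and 3343 under library size. The share of rises among these calls was 50.1% under TMM and 17.9% under library size.

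From 5 dpf to 6 dpf fasted, 3 of 40 members rose and 6 fell, a called share of 22.5% against 18.2% of all genes, 7.98% rising and 10.2% falling. gck fell most, at -7.33 ± 0.86 (edgeR, adjusted p = 0.000255), and gckr, at -3.25 ± 0.51. pfklb (-1.81 ± 0.23), pck2 (-1.15 ± 0.11), agla (-1.27 ± 0.11) and pgm1 (-2.01 ± 0.14) also fell. ldhba rose at 1.26 ± 0.15. hk2 and eno1b, an enolase at 0.302 and 0.0974 CPM at 5 dpf and 1.102 and 0.818 CPM at 6 dpf fasted, rose at 1.43 ± 0.55 and 2.24 ± 0.83, and lost the call without single libraries. gck rested on 4 and 16 counts at 6 dpf, and its value ran from -8.71 to -6.58 without one of the 6 dpf libraries. hk1, ldha, pck1, aldoaa and fbp1a were called higher once single libraries were left out. Red blood cell markers fell in 11 of 14 at this step (median log2 difference -1.98) and skin markers rose in 11 of 18 (median 2.73). Their part in the members' changes was not tested.

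The step from 6 to 7 dpf fasted was small: no member rose, and 4 of 40 fell, a share of 10% against 6.81% of all genes, 2.69% rising and 4.12% falling. pfklb fell at -1.60 ± 0.24 and pck2 at -1.16 ± 0.11, each without exception among the libraries left out. gckr (-2.80 ± 0.81) and pgm1 (-1.004 ± 0.14) lost their calls without single libraries. For gckr these were 7 dpf replicate 1 (-1.75) and 6 dpf replicate 1 (-2.61), and it stood at -7.03, still called, without 7 dpf replicate 2. For pgm1 they were 6 dpf replicate 1 (-0.87) and 7 dpf replicate 2 (-0.90). With only the 2 groups fitted neither gckr (-2.74) nor pgm1 (-0.97) was called, and pgm1 also missed the fold limit with DESeq2 and with RLE scaling, at -0.99 in both. eno1a was called lower, at -2.76, without 6 dpf replicate 1 and, at -1.95, with DESeq2. gck was called higher with only the 2 groups fitted (2.25) and with no filter on low counts (2.28). Its libraries were at 0.184 and 0.818 CPM at 6 dpf fasted and 3.63 and 1.03 CPM at 7 dpf fasted. Red blood cell markers fell in 4 of 14 and skin markers in 5 of 18, and endothelium markers rose in 3 of 12; their part in the members' changes was not tested.

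Across the span from 4 dpf to 7 dpf fasted, 10 of 40 members rose and 9 fell (47.5%), against 39.1% of all genes, 18.7% rising and 20.3% falling. gck fell at -6.90 ± 0.74 and gckr at -4.81 ± 0.70, and pfklb (-3.02 ± 0.25), pgm1 (-2.72 ± 0.14), pck2 (-2.40 ± 0.11) and agla (-2.08 ± 0.12) fell too. gckr ran from -3.77 without 7 dpf replicate 1 to -9.05 without 7 dpf replicate 2, and gck from -8.12 to -6.30 without one or the other. pck1 rose at 3.03 ± 0.63, fbp1a at 2.42 ± 0.23, pygma at 2.76 ± 0.72, pklr at 2.00 ± 0.22, ldhba at 1.68 ± 0.16 and gapdh at 1.37 ± 0.18. pck1 and pck2 thus moved in opposite directions, as did pfkla, which rose at 1.16 ± 0.35, and pfklb. tpi1a was called lower, on 12 and 4 counts at 4 dpf against 0 and 0 in the 7 dpf fasted group, at least 4.11-fold lower on a floor of 3 counts over the group. g6pca.2, gpib, pfkla and tpi1a lost their calls without a single library, and pck1 stood at 2.43 without 4 dpf replicate 1. Without 4 dpf replicate 2 pck1 stood at 3.96 and pygma at 3.36. aldoab, eno3, pygmb and ugp2b gained calls when single libraries were left out. With scaling by library size the all-gene median was -0.33, 8 members rose and 12 fell, and pfkla and g6pca.2 missed the limits. Over all genes 6953 were called under TMM and 7144 under library size. Rises made up 48% of these calls under TMM and 32% under library size.

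Over the same span the related lists held 3 of 24 rising and 9 falling among other isozymes, 4 and 6 of 26 among switches, 4 and 11 of 21 among genes of gluconeogenic supply, 5 and 4 of 22 among other glycogen genes and 16 and 3 of 48 among control genes. tat rose from 152 ± 23.8 to 7734 ± 172 CPM, and galk1 fell from 39.4 ± 3.87 to 1.04 ± 0.0264 CPM. Markers of exocrine pancreas rose in 16 of 16 tested genes, from 0.0512% to 0.0567% of counts at 4 dpf to 0.655% to 1.34% at 7 dpf fasted, and those of endothelium in 9 of 12. Skin markers rose in 9 of 18, and red blood cell markers fell in 10 of 14. Their part in the members' changes was not tested.

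**Figure D3:**
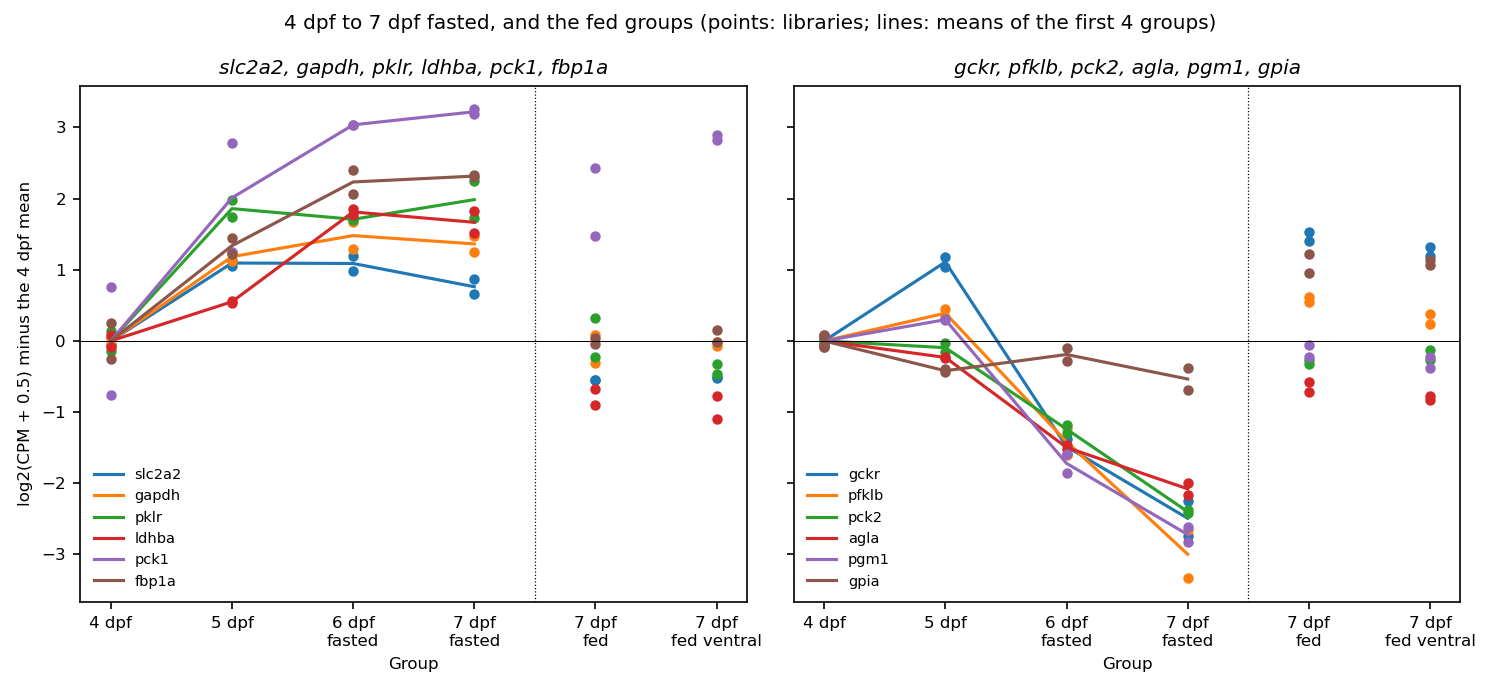
log2(CPM + 0.5) minus the 4 dpf mean (vertical axis) for 12 genes at 4, 5, 6 and 7 dpf fasted and in the fed and ventral groups (horizontal axis); points are libraries and lines join means of the first 4 groups. Both panels were chosen after the values were seen: the left holds genes with a higher 7 dpf fasted than 4 dpf mean, the right genes with a lower one. The pseudocount compresses the changes of gckr.

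Ethanol was compared with none in 6 dpf fasted wild type. 3 of 40 members rose and 11 fell, a called share of 35% against 23% of all genes, 11.8% rising and 11.1% falling. Of the 9 glycogen members 4 fell, namely pygl, ugp2a, gys2 and pgm1, with a median log2 difference of -0.90 against 0 for all genes. pygl fell 4.33-fold (log2 -2.11 ± 0.12, edgeR adjusted p = 3.05e-10) and ugp2a, which makes the UDP-glucose used for glycogen, 3.90-fold (log2 -1.96 ± 0.12). gys2 fell 2.89-fold (log2 -1.53 ± 0.11).

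Elsewhere in the pathway pfklb fell 4.27-fold (log2 -2.10 ± 0.24), gapdh by a log2 of 1.85 and pklr by 1.35, and slc2a2, ldhba, fbp1a and fbp1b fell as well. hk2 rose 7.81-fold (log2 2.96 ± 0.48, edgeR adjusted p = 9.4e-05), and aldoaa at 1.04 ± 0.18 and pfkla at 1.19 ± 0.35 rose with calls lost without one library. pck1, pck2, g6pca.1 and g6pca.2 had log2 differences of -0.033 ± 0.59, -0.30 ± 0.10, -0.14 ± 0.13 and -0.29 ± 0.30, none past the limits. gck and gckr, low in both groups, had 0.21 ± 1.27 and -0.033 ± 0.56. fbp1a missed the fold limit without ethanol replicate 2.

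Several calls turned on the 6 dpf fasted replicate 2. Without it 3 members gained a call, hk1 at 2.84, eno1a at 1.85 and pkma at 1.24, against 1.41, -0.052 and 0.73 with it, and hk2 stood at 3.82. gpib was called higher without ethanol replicate 1 and eno3 lower, at -1.01, without ethanol replicate 2. With scaling by library size the all-gene median was 0.45, 8 members rose and 5 fell. The 5 that still fell were gapdh, pfklb, pygl, gys2 and ugp2a, and slc2a2, pklr, ldhba, fbp1a, fbp1b and pgm1 missed the limits. Over all genes 4089 were called under TMM and 5203 under library size. Rises made up 51.6% of these calls under TMM and 80% under library size.

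Related lists under ethanol had 2 of 22 other glycogen genes rising and 9 falling. The glycogen-targeting subunits ppp1r3ca and ppp1r3cb went from 43.0 ± 7.38 and 164 ± 23.7 CPM to 0.333 ± 0.0738 and 13.8 ± 7.20 CPM. Of control genes 3 of 48 rose and 12 fell, of isozymes 3 and 2 of 24, of switches 3 and 3 of 26 and of gluconeogenic supply 3 and 4 of 21. mlxipl, the carbohydrate response factor, stands on a pair of features in the file and fell on both; the first went from 7.82 ± 0.0117 to 1.48 ± 0.598 CPM. tat fell from 7599 ± 1064 to 1355 ± 158 CPM. Hepatocyte markers took 10.93% to 11.04% of counts without ethanol and 10.5% to 11.9% with it, but 5 of 13 fell and 2 rose, and their median log2 difference of -0.84 was close to the -0.90 of the glycogen members. Markers of exocrine pancreas fell in 16 of 16 tested genes, and skin markers in 13 of 18, with skin at 0.360% and 0.483% of counts without ethanol and 0.0770% and 0.0695% with it. Intestine markers fell in 5 of 12 and rose in 1. Their part in these results was not tested.

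The effect of ethanol was tested against that of food, since these comparisons share no library. The ethanol effect was taken at 6 dpf and the food effect at 7 dpf, each against its own fasted group. Age therefore differs between the effects and cannot be told apart from the treatments. A member was called where the adjusted p was under 0.1 and the log2 effects differed by at least 1. By these limits 5 of 40 members were higher with ethanol and 12 lower. Of all genes 31% were called, 14.6% higher and 16.5% lower. gckr (-6.47 ± 0.91), pfklb (-5.70 ± 0.35), pgm1 (-3.91 ± 0.20) and pck2 (-2.40 ± 0.15) were lower, as were pygl (-1.84 ± 0.17) and ugp2a (-1.82 ± 0.17). The gckr difference was -5.41 without 7 dpf fasted replicate 1, -10.69 without 7 dpf fasted replicate 2, -7.76 without ethanol replicate 1 and -5.87 without ethanol replicate 2. At 6 dpf gckr was low in both groups, at 0.781 and 0.614 CPM fasted and 1.05 and 0.281 CPM with ethanol. Its difference thus came mostly from the change with food. Of the 11 that rose with food, hk2 also rose with ethanol, pfklb and pgm1 fell and 8 were not called. Of the 6 that fell with food, slc2a2, gapdh, pklr, ldhba and fbp1a fell with ethanol and pfkla rose. With scaling by library size slc2a2, pklr, ldhba and fbp1a missed the limits with ethanol and gapdh did not. Under that scaling 13 members differed between the effects, 5 higher and 8 lower with ethanol, among 5652 genes called. gpia, fbp1b, gys2 and tpi1b then missed the limits. For slc2a2 the difference was -0.022 ± 0.17 and for gapdh -0.37 ± 0.25, neither past the limits, while that of ldhba was 1.22 ± 0.22 (edgeR, adjusted p = 0.000185). 11 of the 17 calls held without each library. eno1a, fbp1a, fbp1b, gys2, hk2 and tpi1b did not, and eno1a stood at -1.19 without 6 dpf fasted replicate 2 against -3.09 with it. hk1, pkma, ldha and pgam1a gained calls when single libraries were left out. For 13 of 14 red blood cell markers the effect of ethanol was lower than that of food, and for 10 of 12 endothelium markers it was higher; their part in the members' differences was not tested.

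**Figure D4:**
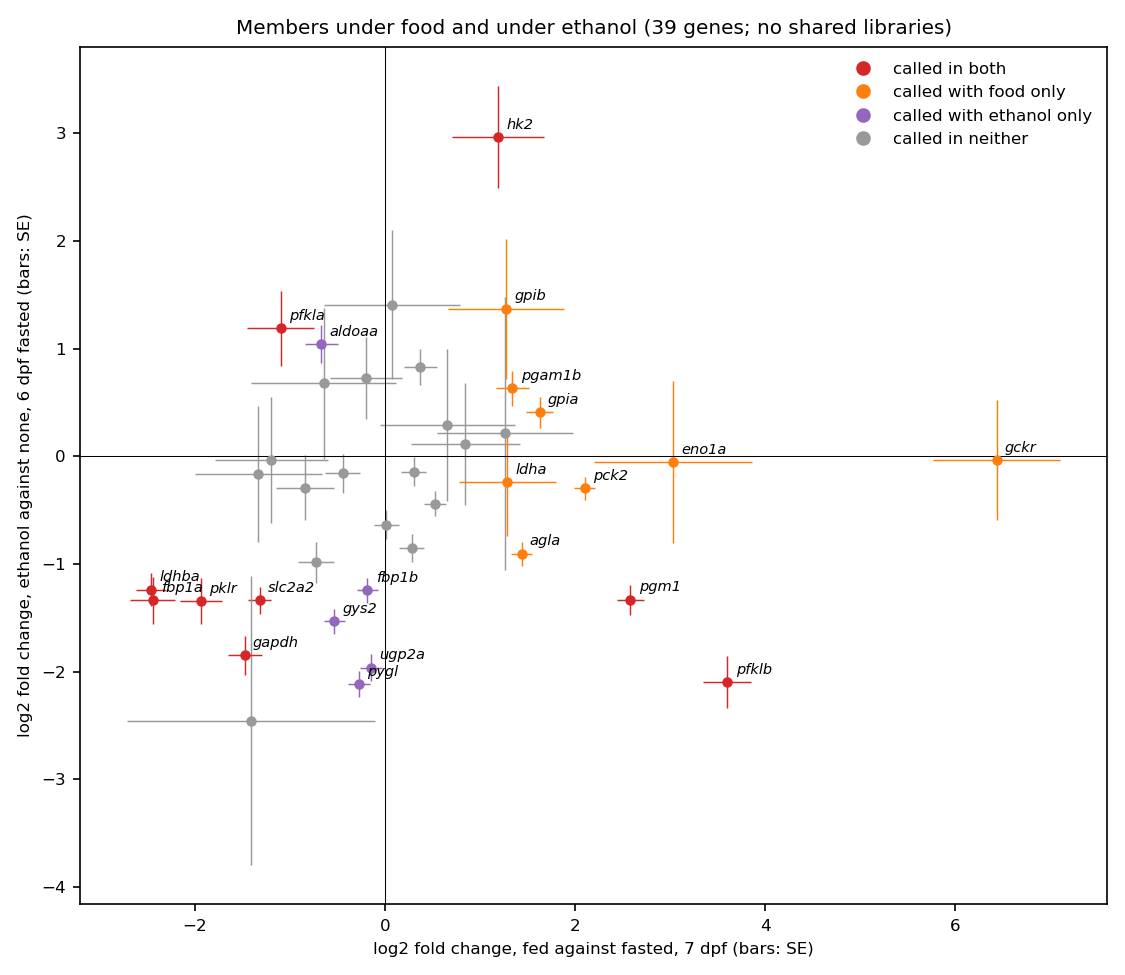
Log2 fold change with food at 7 dpf (horizontal axis) against that with ethanol at 6 dpf fasted (vertical axis) for 39 genes. Bars are the approximate standard errors derived from the F statistic, and tpi1a is left out. The genes that rose with food spread across both sides of the ethanol axis, and slc2a2, gapdh, pklr, ldhba and fbp1a lie in the quadrant where both were lower. Values are from TMM scaling. With scaling by library size slc2a2, pklr, ldhba and fbp1a missed the limits with ethanol.

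GCaMP6s livers were set beside wild type at 6 dpf fasted, and no member passed both limits in edgeR, where 0.961% of all genes were called, 0.714% higher and 0.247% lower. 8 of 40 had an unadjusted p under 0.05, and the share of all genes under that limit was not computed. DESeq2 called 2 members lower, eno1a at -2.20 and ldha at -1.69, among 190 genes it called in all. Wild-type libraries were at 6.89 and 44.6 CPM for eno1a and 16.6 and 36.8 CPM for ldha. GCaMP6s libraries were at 5.63 and 5.60 CPM for eno1a and 8.49 and 8.12 CPM for ldha. The 8 were gpia, pfklb, pgam1a, eno1a, ldha, pck2, agla and pgm1. pfklb was at 33.3 and 25.5 CPM in wild type and 62.7 and 41.5 CPM with the transgene, a log2 difference of 0.83 ± 0.23 (edgeR, adjusted p = 0.0974), and the groups did not overlap. It was called higher, at 1.09, without GCaMP6s replicate 2, and eno1a lower, at -2.99, without wild-type replicate 1. When the mean of both genotypes served as the base for ethanol, 4 members rose and 13 fell. hk1 was gained at 2.09, eno3 at -1.14 and agla at -1.14. With this base 4297 of all genes were called, against 4089 with wild type alone.

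Over the other comparisons the groups did not overlap for 34 of 40 members between ventral and fasted (74.1% of all genes), 18 between ventral and fed (41.1%), 29 with ethanol (70%) and 21 between genotypes (44.3%). The counts were 32 from 4 to 5 dpf (65.2%), 27 from 5 to 6 dpf fasted (66.2%), 24 from 6 to 7 dpf fasted (54.2%) and 34 from 4 to 7 dpf fasted (76.8%).

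Several members differed widely between replicates, among them isozymes typical of other tissues and also gck and pck1. In 6 dpf fasted livers 7 of 39 members with at least 10 counts were over 2-fold apart. All 7 were higher in replicate 2, gck included. At 4 dpf 7 of 40 were that far apart, 6 of them higher in replicate 1. At 5 dpf 8 of 38 were, 5 of them higher in replicate 1. At both ages pck1 was among them, higher in replicate 2. The share of all genes that far apart was not computed, so it is not known whether the members stand out. aldoab was at 6.36 and 0.381 CPM at 4 dpf, hk1 at 2.16 and 9.51 CPM and eno1a at 6.89 and 44.6 CPM in 6 dpf fasted livers. The 31 skeletal muscle marker features made up 0.0129% and 0.00371% of counts at 4 dpf, with 3 and 2 features at 0, and 0.00259% and 0.00851% in 6 dpf fasted livers, with 3 and 2 at 0. In these groups the library with more marker counts also had the higher CPM of aldoab, hk1 and eno1a. The same held at 5 dpf, with ethanol, at 7 dpf fasted and in the ventral group. Other members typical of muscle did not all follow. In every group but 4 dpf and ventral, pygmb was higher in the library with fewer marker counts, as in 6 dpf fasted livers (3.58 and 2.86 CPM). So was pygma at 4 and 5 dpf, and hk2 at 4 and 5 dpf, with ethanol and in fed livers. In fed livers aldoab, hk1 and eno1a, and with GCaMP6s hk1 and aldoab, were higher in the library with fewer marker counts. For aldoab the counts were 10 and 10 fed, 8 and 8 ventral and 12 and 11 with GCaMP6s. Its order in these groups thus rests on the scaling to library size. The gaps were of different sizes: the ventral libraries were 35.5-fold apart in the markers, 1.14-fold in aldoab and 1.43-fold in eno1a. Their part in the replicate gaps was not tested.

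**Figure D5:**
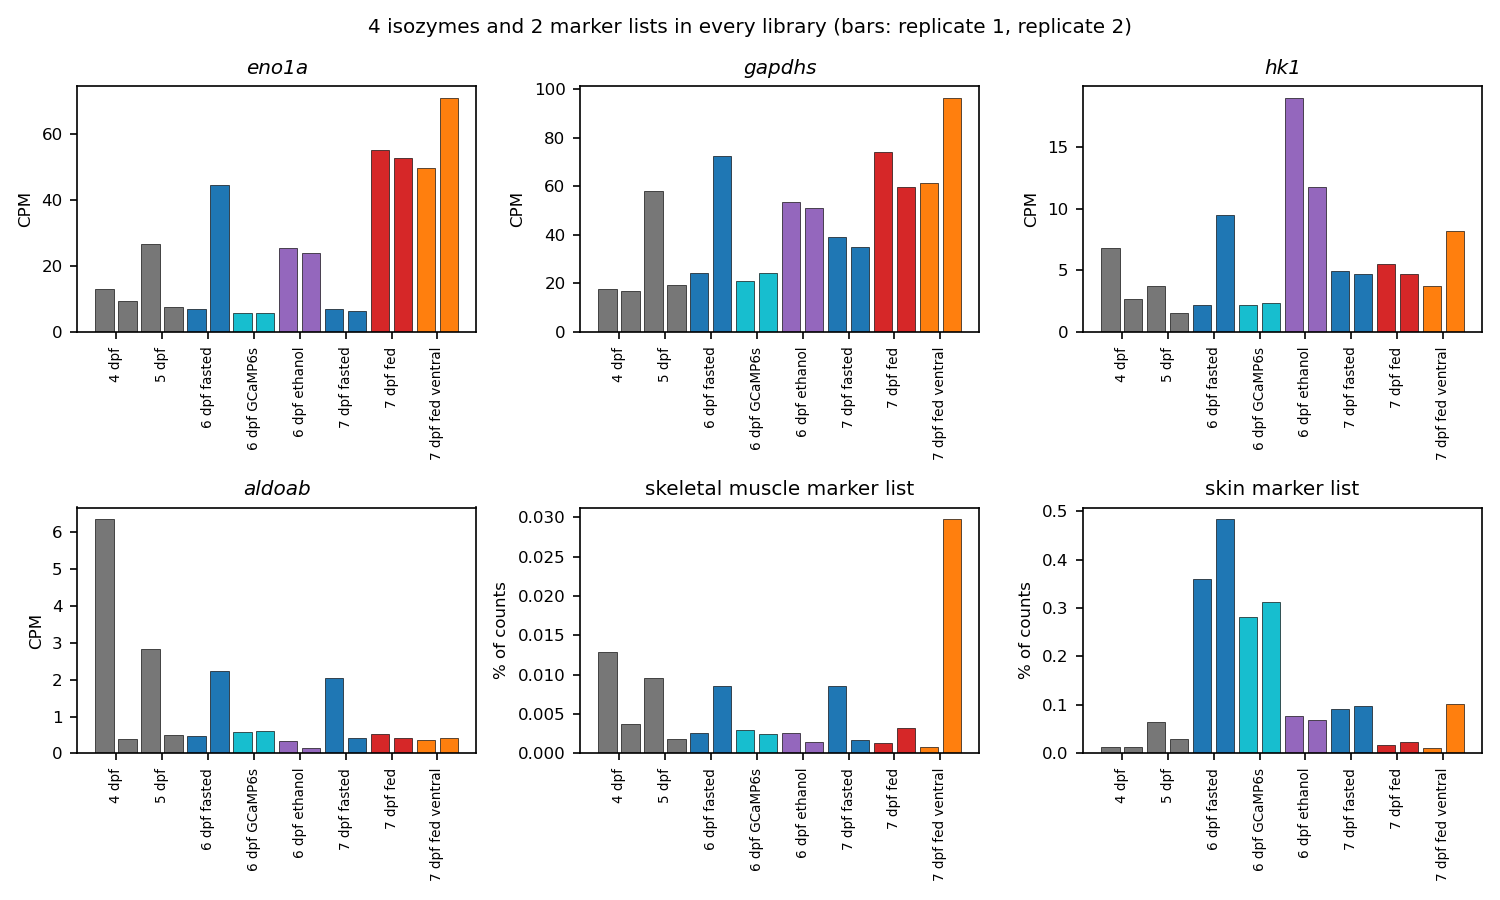
CPM of eno1a, gapdhs, hk1 and aldoab, and the share of counts (%) of the skeletal muscle and skin marker lists, in the 16 libraries (horizontal axis); bars are replicate 1 and replicate 2 of each group. In 6 dpf fasted livers all 4 genes were higher in replicate 2, as both marker lists were.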

How the data were processed

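RNA from pooled larval livers was sequenced in 16 libraries of 8 groups. Extraction used a ReliaPrep kit and library construction the strand-marking NEBNext Ultra II kit, per the labels' protocols. HISAT2 alignment to GRCz11 was followed by featureCounts, per the submitters' processing notes, which name no versions, annotation release or strand setting. Each deposited value is a raw count for a gene. Between 70.3% and 77.8% of counts from 1 to 50 were even, so pairs may have been counted per mate, and tests were repeated with counts halved.

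The tool for the reported tests was edgeR 4.0.16, run in R 4.3.3. It used robust quasi-likelihood F tests after TMM scaling, and genes were kept by filterByExpr with the groups. A single model held a coefficient per group, with 8 residual degrees of freedom. CPM were computed from the deposited counts on TMM-scaled library sizes, for filtered genes too. Normalization factors ran from 0.837 to 1.30. The script was tested on simulated data. Replicates correlated at 0.977 to 0.987 over log2 CPM, and no pair agreed within counting noise.

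The members, the 5 lists of related genes and the 11 marker lists were chosen with earlier results of these data known. The members were taken as listed; per-library values were given for the 3 called members with the largest absolute change in each comparison, for paralogues called in opposite directions, and for gck, gckr, pck1, pck2, g6pca.1, g6pca.2, pklr and gys2. Of related genes, up to 3 called per list and comparison were eligible. A further related gene is not reported here. Alternatives were RLE and library size scaling, no filter, DESeq2 1.42.0, halved counts, no fold limit, only the 2 groups compared, a replicate block, a pooled ethanol base and leaving out each library. No sequence is printed, since no sequence table was used here.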

Additional observations from a re-analysis of the deposited data

How the results depend on the processing

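Member counts per comparison are given here, and those with a library left out are not set against all genes. Without the fold limit, 27 members were called with food, 23 with ethanol and 20 from 4 to 5 dpf. The counts were 14 from 5 to 6 dpf, 11 from 6 to 7 dpf and 3 between GCaMP6s and wild type. Of all genes 10224, 7901, 6186, 6717, 3437 and 618 were called, in the same order. Ventral against fed gave 1 with DESeq2 (g6pca.2), and 1 (gck) both with no filter and with only the 2 groups compared, and GCaMP6s against wild type gave 2 with DESeq2 and 5 with no filter. Over all genes these settings called 382, 733 and 220 for ventral against fed, and 190 and 461 for GCaMP6s. Calls with no filter are not taken as support, since that fit gave some members very small adjusted p-values on uneven replicates. eno1a from 6 to 7 dpf fasted had 2.01e-25 (edgeR), with 6 dpf fasted libraries at 6.89 and 44.6 CPM. Leaving out each library gave 14 to 17 members with food, 14 to 16 for ventral against fasted, 0 for ventral against fed, 13 to 16 with ethanol, 0 to 1 for GCaMP6s, 7 to 8 from 4 to 5 dpf, 8 to 11 from 5 to 6 dpf, 3 to 4 from 6 to 7 dpf, 17 to 21 from 4 to 7 dpf, 13 to 19 for ethanol against food and 34 to 37 for any difference. Single members changed side: eno1a with ethanol turned from -0.052 to 1.85 without 6 dpf fasted replicate 2 and ranged from -0.84 to that value over the libraries left out. Where a left-out library leaves a group with 1 library, that library is assumed to vary like the other groups.

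Deviations of same-numbered libraries correlated weakly, at -0.125 to 0.139, and replicate numbers were not used as pairs in the main model. Such values cannot settle whether same-numbered libraries share a clutch or batch. With a replicate block, 17 members were called with food, 15 for ventral against fasted, 0 for ventral against fed, 16 with ethanol, 0 for GCaMP6s, 10 from 4 to 5 dpf, 9 from 5 to 6 dpf, 4 from 6 to 7 dpf, 20 from 4 to 7 dpf, 16 for ethanol against food and 35 for any difference. In the same order 6600, 6521, 205, 4007, 166, 2612, 3169, 1175, 6852, 5458 and 13681 of all genes were called. Low-count members (tpi1a, eno1b, gpib, pygma and gckr when fasted) are limited by depth.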

Other observations

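Several members without a call kept a narrow range. pgk1, phosphoglycerate kinase, was at 1026 and 1054 CPM at 4 dpf, 845 and 858 CPM with ethanol and 1295 and 1105 CPM fed. gys1, the muscle-type glycogen synthase, was at 14.5 and 11.05 CPM in 6 dpf fasted livers, 11.05 and 11.9 CPM with ethanol and 10.4 and 9.19 CPM fed, against the fall of gys2 with ethanol.

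2 related genes outside the members were chosen after their values were seen. hkdc1, a hexokinase-like gene, was at 311 ± 114 CPM at 4 dpf, 19.7 ± 2.35 CPM at 6 dpf fasted and 25.2 ± 3.21 CPM at 7 dpf fasted (mean ± SD, n = 2). It was at 91.3 ± 5.84 CPM in fed livers, where it rose against fasted, and at 39.6 ± 5.51 CPM in the ventral group, where it was called lower than in the fed group with all libraries but not without 3 of the 4 in turn. pcxa, a pyruvate carboxylase that feeds gluconeogenesis, was at 1277 ± 22.3 CPM at 4 dpf, 143 ± 1.95 CPM at 7 dpf fasted and 887 ± 85.9 CPM fed.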
